A study of Homo sapiens with 4 samples.

Results

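The genes described here encode the subunits of the mitochondrial respiratory chain that are read from nuclear chromosomes. They were taken by gene name: names that begin with NDUFA, NDUFB, NDUFC, NDUFS, NDUFV, UQCR, ATP5 or COX plus a digit, together with SDHA, SDHB, SDHC and SDHD. Names of pseudogenes, names with a hyphen and names that contain AF were left out. The rule gave 93 of the 28482 genes in the deposited table. Of these, 37 were grouped with complex I, 4 with complex II, 9 with complex III, 25 with complex IV and 18, all with an ATP5 name, with complex V. The name is not always the role: NDUFA4, which carries a complex I name, is a subunit of complex IV and was counted there. ATP5SL stayed with complex V by its name, although it is an assembly factor of complex I.

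RNA was sequenced from K562/G01 cells, a line derived from the K562 chronic myeloid leukemia line and labelled imatinib-resistant. The 4 groups were TCF7 knockdown cells (lentiviral shRNA against TCF7) with 1 µM imatinib for 48 hours, scramble cells (lentiviral scramble control) with the same imatinib treatment, TCF7 knockdown cells without imatinib, and scramble cells without imatinib. TCF7 is a transcription factor that binds DNA with beta-catenin in the Wnt pathway, and imatinib inhibits the BCR-ABL1 kinase. All 4 groups thus carry a lentivirus and come from 1 resistant line. Each group has 1 library, with between 30634832 and 34095585 counts. The labels leave unsaid whether infection and treatment were done in separate cultures, so a lasting difference between the knockdown and the scramble culture cannot be told apart from an effect of TCF7.

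TCF7 itself checked the labels: it had 3.69 CPM (the count scaled to a common library total) in knockdown cells with imatinib, 10.8 CPM in scramble cells with imatinib, 2.55 CPM in knockdown cells without imatinib and 10.2 CPM in scramble cells without it. The knockdown libraries were the low ones, with log2 ratios of -1.51 under imatinib and -1.97 without it. All 9 markers of the erythroid leukemia line were measured, with a summed level of 3314 CPM in knockdown cells with imatinib, 3390 CPM in scramble cells with imatinib, 3260 CPM in knockdown cells and 3523 CPM in scramble cells. None of 4 lymphoid markers passed the filter on low counts, and their summed level was at most 0.176 CPM in any library. Of 3 monocyte markers 1 passed, LYZ, with sums of 42.2, 39.6, 44.2 and 36.0 CPM in the same order of libraries. Nearly all of each sum was LYZ, at 42.0, 39.1, 44.1 and 35.9 CPM. CD14 had at most 0.264 CPM and CSF1R at most 0.205 CPM in any library. Of 5 fibroblast markers 1 passed, COL1A1, and their summed level was 2.27 CPM in knockdown cells with imatinib, 0.792 CPM in scramble cells with imatinib, 2.51 CPM in knockdown cells and 1.03 CPM in scramble cells.

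Complex I takes electrons from NADH, complex II takes them from succinate, and both pass them through ubiquinone to complex III, cytochrome c and complex IV, which reduces oxygen. Complexes I, III and IV pump protons, and complex V, the ATP synthase, lets the protons flow back through a ring of c subunits to drive ATP synthesis in its F1 head. Complexes I, III, IV and V join nuclear subunits with subunits made from mitochondrial DNA, whereas complex II is wholly nuclear. Many of the nuclear genes have promoters with sites for NRF1 and for ETS factors such as GABPA.

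RefSeq promoter windows (GRCh38.p14, 250 bases before to 50 bases after the start) were matched for 74 of the 93 genes. The windows were searched on both strands for 5 short motifs. The NRF1 motif GCGCANGCG lay in 24 of the 74 windows (32.4%), against 7.52% of all 35116 windows in the table. The ETS motif CCGGAAG lay in 22 (29.7%), against 10.3% of all, and the YY1 motif AAGATGGC in 12 (16.2%), against 2.89% of all. The SP1 motif GGGCGGG lay in 20 (27.0%), against 33.1% of all windows. The motif ATCAAAG, which TCF factors bind, was in 0 of the 74 windows, against 2.62% of all. No listed motif was found in 19 of the 74 windows. A match is a run of letters and not a measured binding site, and a window without one says nothing about the factor.

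The windows of 5 genes are shown because these genes were called for imatinib when GC content and length were taken into account, and because together they hold 4 of the motifs. Capitals mark the motifs on either strand, and each sequence runs 5′ to 3′ on the strand of its gene. COX5B lies at chr2:97645812-97646111 on the plus strand with 2 ETS and 3 SP1 matches, 1 pair of which adjoin. NDUFB4 lies at chr3:120596086-120596385 on the plus strand, and its matches are all to the NRF1 motif. ATP5A1 lies at chr18:46104178-46104477 on the minus strand with 3 SP1 matches, ATP5F1 at chr1:111449214-111449513 on the plus strand with a YY1 match, and ATP5O at chr21:33915755-33916054 on the minus strand with an NRF1 and a YY1 match.
COX5B: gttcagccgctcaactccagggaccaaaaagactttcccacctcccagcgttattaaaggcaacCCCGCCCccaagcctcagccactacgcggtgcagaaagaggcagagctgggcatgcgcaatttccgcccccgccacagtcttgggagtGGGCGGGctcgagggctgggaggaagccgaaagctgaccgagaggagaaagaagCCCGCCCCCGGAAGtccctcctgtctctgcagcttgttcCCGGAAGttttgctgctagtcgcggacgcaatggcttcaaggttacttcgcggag
NDUFB4: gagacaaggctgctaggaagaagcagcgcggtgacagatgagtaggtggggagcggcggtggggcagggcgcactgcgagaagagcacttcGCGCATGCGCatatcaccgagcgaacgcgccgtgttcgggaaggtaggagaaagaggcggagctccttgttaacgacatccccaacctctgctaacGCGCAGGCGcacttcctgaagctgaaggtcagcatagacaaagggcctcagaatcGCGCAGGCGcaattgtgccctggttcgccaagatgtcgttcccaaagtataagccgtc
ATP5A1: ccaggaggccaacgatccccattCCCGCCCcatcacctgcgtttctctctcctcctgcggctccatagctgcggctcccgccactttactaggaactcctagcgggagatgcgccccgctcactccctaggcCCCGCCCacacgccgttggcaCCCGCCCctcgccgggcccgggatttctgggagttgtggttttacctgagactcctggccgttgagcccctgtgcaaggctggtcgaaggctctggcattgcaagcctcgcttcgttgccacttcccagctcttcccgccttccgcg
ATP5F1: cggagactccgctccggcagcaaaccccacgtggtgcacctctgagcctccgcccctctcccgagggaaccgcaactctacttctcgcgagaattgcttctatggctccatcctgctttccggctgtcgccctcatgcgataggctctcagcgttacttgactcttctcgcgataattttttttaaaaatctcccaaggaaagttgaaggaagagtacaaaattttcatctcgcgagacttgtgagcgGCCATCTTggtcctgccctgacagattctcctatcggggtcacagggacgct
ATP5O: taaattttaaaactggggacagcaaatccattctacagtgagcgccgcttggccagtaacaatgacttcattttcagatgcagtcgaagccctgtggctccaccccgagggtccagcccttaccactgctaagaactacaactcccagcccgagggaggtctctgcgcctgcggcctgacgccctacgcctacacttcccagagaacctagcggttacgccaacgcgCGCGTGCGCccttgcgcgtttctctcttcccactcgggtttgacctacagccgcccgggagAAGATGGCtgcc

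Of the 93 genes, 88 passed the filter of 1 CPM or more in at least 2 libraries, and 13296 genes passed in all. The 5 that did not pass were the tissue-restricted or rare paralogs COX4I2, COX6B2, COX8C, ATP5L2 and NDUFA4L2. All 5 had fewer counts than their common relatives. The lung form COX4I2 had 0 counts in 3 libraries and 1 count in scramble cells with imatinib, whereas the ubiquitous COX4I1 had 181, 193, 175 and 179 CPM in knockdown cells with imatinib, scramble cells with imatinib, knockdown cells and scramble cells. The testis form COX6B2 had 1 count in knockdown cells with imatinib and 0 in the other libraries. COX8C had 0, 1, 4 and 1 counts in the same order, and ATP5L2 had 2, 8, 8 and 4 counts.

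Levels per length were read from the deposited FPKM values, which divide the count by the library total and by the length of the merged exons. In scramble cells the median of the 88 genes was 20.8 FPKM. Complex I spanned 0.546 FPKM for NDUFA13 to 198 FPKM for NDUFS5, with a median of 17.8. Its accessory subunits NDUFS5 and NDUFA13 are not part of the catalytic core. NDUFA13 shares 21.0% of its exonic bases with other genes on the same strand, so its counts could be split. Complex II spanned 7.83 FPKM for the membrane anchor SDHC to 42.8 FPKM for the iron-sulfur protein SDHB, with a median of 30.3. Complex III spanned 11.2 FPKM for UQCR11 to 106 FPKM for the hinge protein UQCRH, with a median of 29.8 over 8 subunits. The retrocopy UQCRHL was much lower, at 0.761 FPKM, and reads of the near-identical UQCRH could be split between both. UQCR11 shares 10.9% of its exonic bases with another gene on the same strand.

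In complex IV the 11 structural subunits spanned 8.42 FPKM for COX6A1 to 149 FPKM for COX7C, with a median of 37.3. COX6A1 shares 13.0% of its exonic bases with another gene on the same strand. In complex V the 15 structural subunits spanned 13.1 FPKM for the f subunit ATP5J2 to 349 FPKM for ATP5B, the beta subunit with the catalytic sites of the F1 head. The median in complex V was 32.0 FPKM. ATP5B was the highest of all members in every library, with 329, 373, 364 and 349 FPKM in knockdown cells with imatinib, scramble cells with imatinib, knockdown cells and scramble cells. The c subunit of the ring is made from 3 genes that encode the same mature protein, and in scramble cells ATP5G2 stood at 32.0, ATP5G3 at 25.6 and ATP5G1 at 15.4 FPKM. SDHC shows what the length does to such values: it had 111 CPM in scramble cells but is divided by 14160 bases of merged exons.

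**Figure D1:**
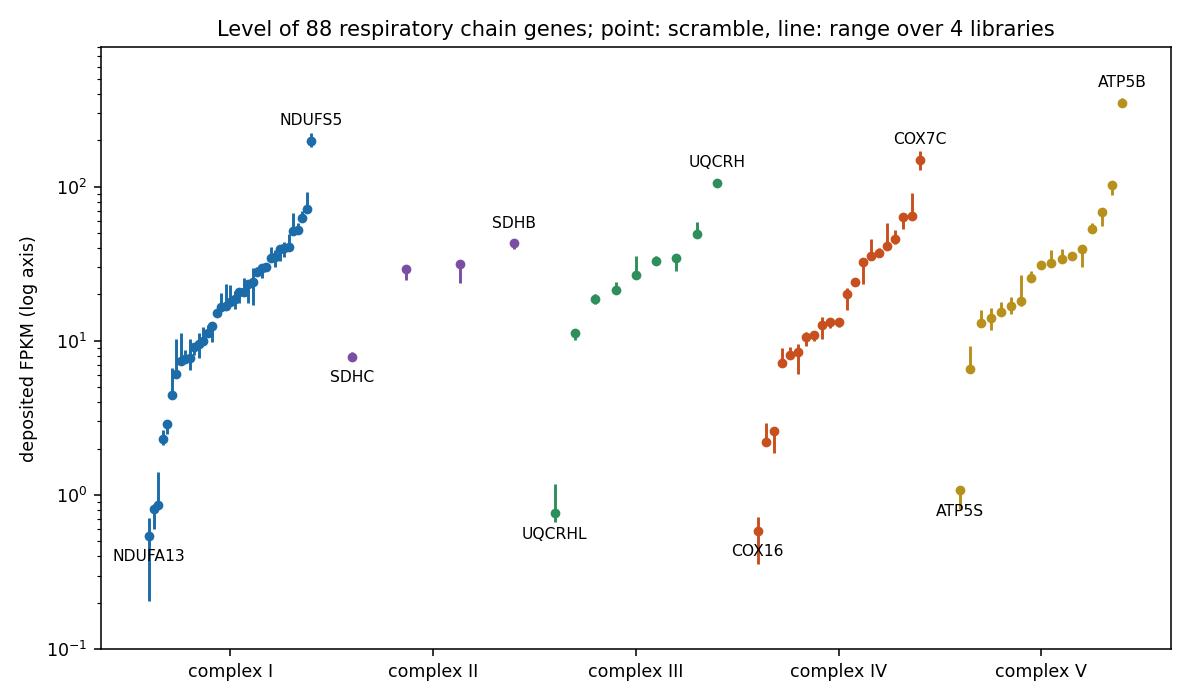
Deposited FPKM (log axis) of the 88 genes that passed the filter, by complex. Points are the scramble library without imatinib and lines span the lowest to the highest of the 4 libraries. ATP5B stands highest at 349 FPKM and NDUFA13 lowest at 0.546 FPKM. NDUFA13 shares 21.0% of its exonic bases with other genes on the same strand.

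As a set these genes took 7182 CPM in knockdown cells with imatinib, 7368 CPM in scramble cells with imatinib, 7745 CPM in knockdown cells and 7366 CPM in scramble cells. The knockdown library without imatinib was the highest and the knockdown library with imatinib the lowest. In such bulk RNA, fewer cells of a type and less RNA per cell cannot be told apart.

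With imatinib the RNA of subunits of complexes I, IV and V such as NDUFC2, NDUFA4, ATP5A1 and ATP5O was lower, and that of others such as COX5B, NDUFS7 and UQCRC1 was higher, by at most 0.60 on the log2 scale among the called genes. Of the 88 genes, 9 rose and 15 fell at an adjusted p under 0.05 by edgeR's quasi-likelihood test in a fit with knockdown and imatinib as additive factors. Over all genes tested, 13.8% rose and 7.08% fell, so the members that rose were a smaller share than the background (10.2%) and those that fell a larger one (17.05%). With 1 library per group the error of this test comes from the departure of the 4 libraries from additive effects, with 1 residual degree of freedom, and from information shared across genes. The p-values therefore measure only the spread between these 4 libraries, which may be technical. The remaining 64 genes did not pass the test.

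The calls followed the GC content of the transcripts. The 9 genes that rose had 53.0% to 63.9% GC with a median of 56.4%, the 15 that fell had 35.04% to 46.5% with a median of 42.5%, and the 64 others had a median of 47.9%. The 2 called groups did not overlap in GC content. Across the 88 genes the log2 fold change for imatinib and GC content had a Pearson r of 0.70 and a Spearman rho of 0.68. Across the 13255 tested genes with a known GC content these were 0.67 and 0.69. The points share the same 4 libraries, and genes are not independent replicates.

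A second fit therefore took, for each library, a smooth trend in GC content and length of the transcript as an offset. The error of this second fit came wholly from information shared across genes (infinite prior degrees of freedom). Its adjusted p-values therefore rest on a different error from those of the main fit. In that fit 2 of the 88 genes rose, against 2.29% of all genes, and 7 fell, against 2.44% of all. The genes that rose were COX5B and NDUFB4, and those that fell were NDUFC2, ATP5O, ATP5A1, NDUFA4, ATP5F1, ATP5J and SDHA. Of the 24 calls without the offsets, 6 stayed called (COX5B, NDUFC2, NDUFA4, ATP5A1, ATP5F1 and ATP5O). Only NDUFV1 changed sign, with log2 fold changes of 0.21 without the offsets and -0.13 with them. Pearson r with GC content was 0.05 after the offsets. Which part of the GC relation belongs to the cells and which to the libraries was not tested.

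**Figure D2:**
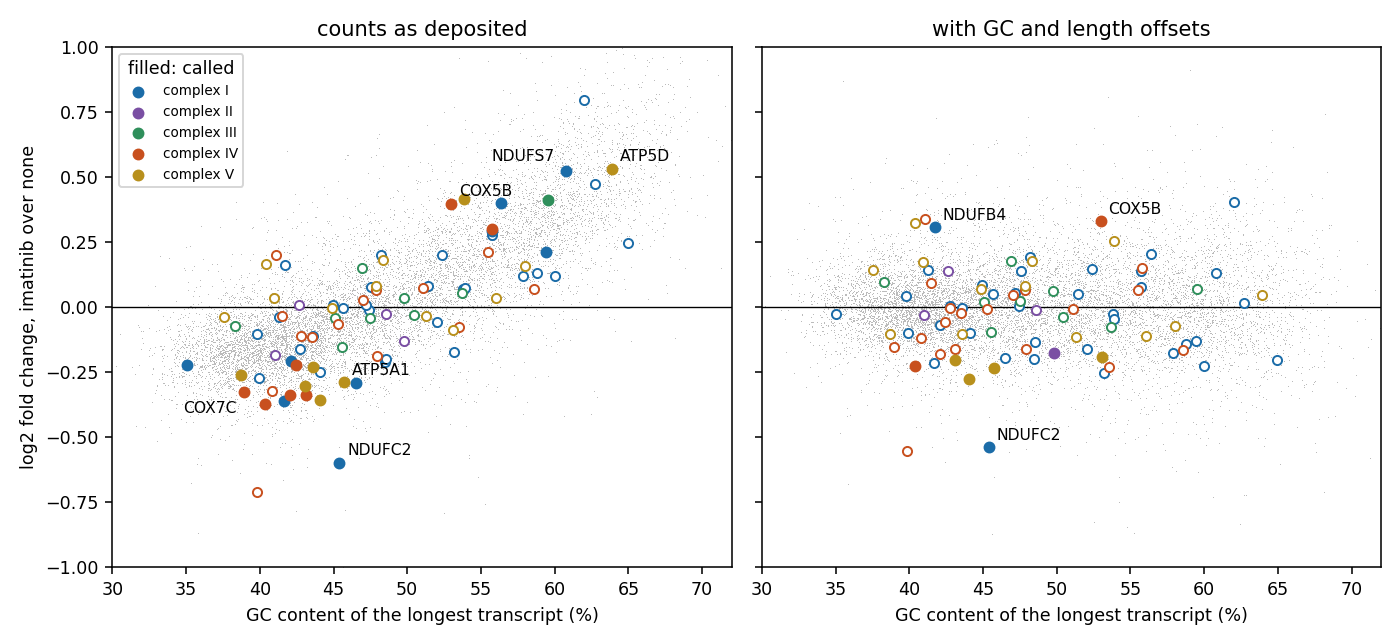
Log2 fold change for imatinib over none (vertical) against GC content of the longest transcript in percent (horizontal), from counts as deposited (left) and with GC and length offsets (right). Coloured points are the 88 genes by complex, filled where called by edgeR; grey dots are genes with a mean of 5 CPM or more. On the left the 9 genes that rose lie at 53.0% GC or more and the 15 that fell at 46.5% or less; on the right COX5B and NDUFB4 are the filled points above 0.

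In complex I, 4 genes rose and 5 fell without the offsets, of 37. These were 10.8% and 13.5%, against 13.8% and 7.08% of all genes. With the offsets 1 rose and 1 fell (2.70% each), against 2.29% and 2.44% of all genes. NDUFS7, a core subunit that carries an iron-sulfur cluster, had 49.9 CPM in knockdown cells with imatinib, 47.1 CPM in scramble cells with imatinib, 33.4 CPM in knockdown cells and 33.5 CPM in scramble cells. Both imatinib libraries were high, and the log2 fold change was 0.53 ± 0.10 (SE; edgeR adjusted p = 0.000184). Annotated exons on the opposite strand cover 49.1% of the exonic bases of NDUFS7, and with the offsets its log2 fold change was 0.13. The accessory subunit NDUFA3 and the core subunit NDUFS3 rose by 0.40 and 0.29 on the log2 scale. The flavoprotein subunit NDUFV1, which oxidises NADH, had the fourth call.

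The change of greatest size among the called genes was that of NDUFC2, an accessory subunit of the membrane arm at chromosome 11, 78068304 to 78080219 (minus strand, GRCh38). NDUFC2 had 49.0 CPM in knockdown cells with imatinib, 45.5 CPM in scramble cells with imatinib, 78.4 CPM in knockdown cells and 64.2 CPM in scramble cells. The imatinib libraries were the low ones and did not overlap the untreated ones. Its log2 ratio was -0.68 in knockdown cells, with a counting interval of -0.78 to -0.59, and -0.51 in scramble cells, with an interval of -0.61 to -0.42. The fitted log2 fold change was -0.60 ± 0.09 (SE; edgeR adjusted p = 8.82e-06), or 0.661-fold, and -0.54 with the offsets (edgeR adjusted p = 1.9e-10). The readthrough gene NDUFC2-KCTD14 shares 16.3% of its exonic bases on the same strand, so counts could be split there.

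Other complex I genes that fell were NDUFB6 by 0.36, NDUFA12 by 0.29, NDUFA5 by 0.22 and the core subunit NDUFS1 by 0.20 on the log2 scale. None of these 4 stayed called with the offsets. NDUFB4, a membrane arm subunit, was called in the other direction with the offsets, at a log2 fold change of 0.31 (edgeR adjusted p = 0.0147), against 0.16 without them. Its levels were 43.5 CPM in knockdown cells with imatinib, 36.2 CPM in scramble cells with imatinib, 36.9 CPM in knockdown cells and 33.6 CPM in scramble cells.

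**Figure D3:**
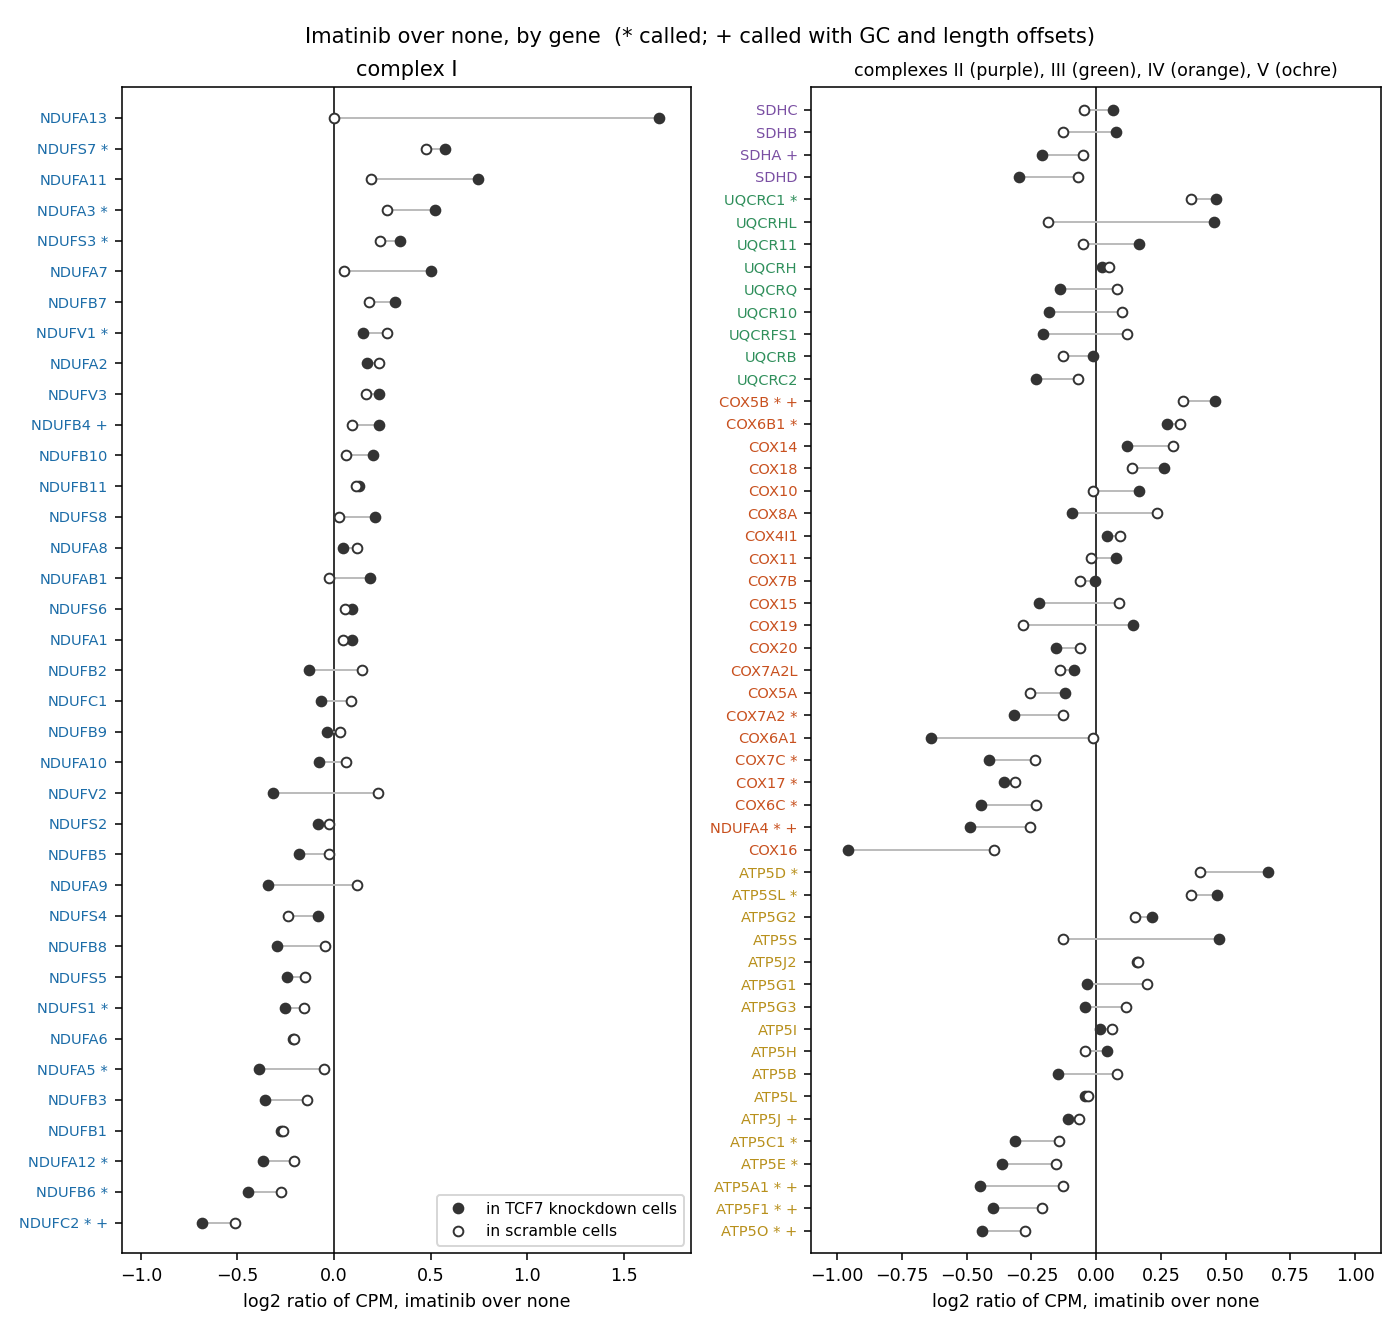
Log2 ratio of CPM, imatinib over none, for each of the 88 genes, complex I on the left and complexes II to V on the right. Filled points are TCF7 knockdown cells and open points scramble cells, 1 library each; an asterisk marks a gene called by edgeR and a plus sign one called with the offsets. NDUFC2 lies at -0.68 and -0.51, and NDUFA13, with at most 61 counts in a library, at 1.68 and 0.00.

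Complex II, which oxidises succinate, had no call without the offsets. SDHA, the flavoprotein, had 207 CPM in knockdown cells with imatinib, 238 CPM in scramble cells with imatinib, 239 CPM in knockdown cells and 244 CPM in scramble cells. Its log2 fold change of -0.18 with the offsets passed the test (edgeR adjusted p = 0.0482), and that of -0.13 without them did not. The summed ratio of complex II was -0.10 in knockdown cells and -0.07 in scramble cells. In complex III, UQCRC1, a core protein, rose: it had 115 CPM in knockdown cells with imatinib, 113 CPM in scramble cells with imatinib, 83.1 CPM in knockdown cells and 86.9 CPM in scramble cells. The fold change was 1.33 (edgeR adjusted p = 0.000206), and on the log2 scale it was 0.41 without and 0.07 with the offsets. The other 8 genes of complex III did not pass, among them the Rieske iron-sulfur protein UQCRFS1. The 1 call was 11.1% of the 9 genes, where 13.8% of all genes rose.

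In complex IV, 2 of 21 genes rose and 5 fell without the offsets. These were 9.52% and 23.8%, against 13.8% and 7.08% of all genes. With the offsets 1 rose and 1 fell (4.76% each), against 2.29% and 2.44% of all genes. COX5B, a subunit on the matrix side, had 83.8 CPM in knockdown cells with imatinib, 76.3 CPM in scramble cells with imatinib, 60.8 CPM in knockdown cells and 59.8 CPM in scramble cells. Both imatinib libraries were high, at a log2 fold change of 0.40 ± 0.08 (SE; edgeR adjusted p = 0.00073), and 0.33 with the offsets (edgeR adjusted p = 0.000248). Its companion COX5A did not pass, with 75.6 CPM in knockdown cells with imatinib, 75.5 CPM in scramble cells with imatinib, 82.0 CPM in knockdown cells and 89.1 CPM in scramble cells. COX6B1, the ubiquitous form of subunit 6B, rose by 0.30 on the log2 scale, and by 0.15 with the offsets, which did not pass.

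NDUFA4 fell: it had 56.1 CPM in knockdown cells with imatinib, 60.7 CPM in scramble cells with imatinib, 78.4 CPM in knockdown cells and 71.6 CPM in scramble cells. The imatinib libraries were low in both backgrounds, with log2 ratios of -0.49 in knockdown cells and -0.25 in scramble cells. The fitted log2 fold change was -0.37 ± 0.09 (SE; edgeR adjusted p = 0.0021), and -0.22 with the offsets (edgeR adjusted p = 0.0402). COX6C fell by 0.34, COX7C by 0.32 and COX7A2 by 0.22 on the log2 scale, and the copper chaperone COX17 fell by 0.34. COX17 was the sole call among the 9 assembly factors of complex IV, which include COX10 and COX15 for heme A synthesis and COX11 for copper delivery. That was 11.1% of the 9, where 7.08% of all genes fell. The remaining ubiquitous subunits COX4I1, COX6A1, COX7B and COX8A and the supercomplex factor COX7A2L were not called.

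Of the 17 genes grouped with complex V, 2 rose and 5 fell without the offsets. These were 11.8% and 29.4%, against 13.8% and 7.08% of all genes. With the offsets 0 rose and 4 fell (23.5%), against 2.29% and 2.44% of all genes. Those that rose without the offsets were ATP5D and ATP5SL, the complex I assembly factor, at log2 fold changes of 0.53 and 0.42. Neither passed with the offsets. In the F1 head the small delta subunit ATP5D rose, with 60.3 CPM in knockdown cells with imatinib, 54.7 CPM in scramble cells with imatinib, 38.0 CPM in knockdown cells and 40.9 CPM in scramble cells. Its log2 fold change was 0.05 with the offsets, and its GC content of 63.9% was the highest of the called genes. The alpha subunit ATP5A1, the gamma subunit ATP5C1 and the epsilon subunit ATP5E fell. ATP5A1 had 331 CPM in knockdown cells with imatinib, 395 CPM in scramble cells with imatinib, 450 CPM in knockdown cells and 427 CPM in scramble cells. Both imatinib libraries were below both untreated ones, at a log2 fold change of -0.29 ± 0.07 (SE; edgeR adjusted p = 0.00515), and -0.23 with the offsets (edgeR adjusted p = 0.00285). The beta subunit ATP5B did not pass, with 764, 866, 844 and 810 CPM in the same order of libraries.

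The peripheral stalk holds the head still while the ring turns. Of its 4 genes, ATP5O and ATP5F1 fell without the offsets, and ATP5O, ATP5F1 and ATP5J with them. These were 50% and 75% of the 4, where 7.08% and 2.44% of all genes fell. ATP5O, which ties the stalk to the head, had 40.4 CPM in knockdown cells with imatinib, 38.9 CPM in scramble cells with imatinib, 54.7 CPM in knockdown cells and 46.6 CPM in scramble cells. ATP5F1, the b subunit, had 189, 202, 248 and 231 CPM in the same order. For both genes the imatinib libraries lay below the untreated ones. The summed stalk ratio was -0.24 in knockdown cells (counting interval -0.27 to -0.20) and -0.15 in scramble cells (-0.18 to -0.11). The sum of the 3 c ring genes lay the other way, at 0.06 in knockdown cells (0.02 to 0.09) and 0.14 in scramble cells (0.10 to 0.18), with no c ring gene called. In knockdown cells ATP5G2 alone lay above 0, at 0.22, with ATP5G1 and ATP5G3 both at -0.04; in scramble cells all 3 lay above 0. The difference between the stalk and the ring was not tested.

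**Figure D4:**
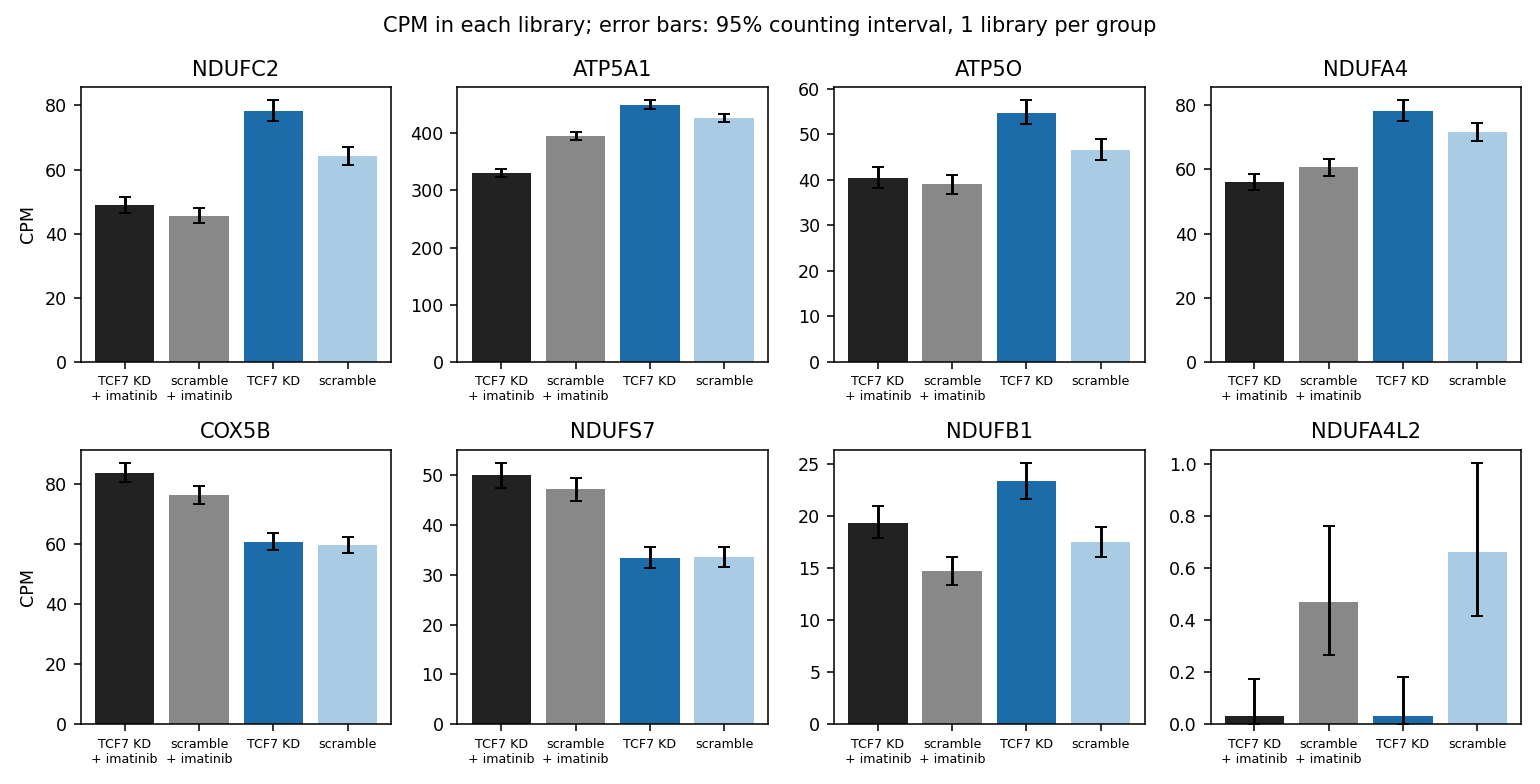
CPM of 8 genes in each library (vertical axis from 0), in the order TCF7 knockdown with imatinib, scramble with imatinib, TCF7 knockdown and scramble. Error bars are 95% counting intervals of 1 library; NDUFC2, ATP5A1, ATP5O and NDUFA4 are low in both imatinib libraries, COX5B and NDUFS7 are high in both, NDUFB1 is high in the knockdown library of each pair, and NDUFA4L2 had 1 count in each knockdown library.

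Over all members the median log2 ratio for imatinib was -0.04 in knockdown cells and -0.01 in scramble cells, against 0.01 and -0.01 over all genes tested. Of the 88 genes, 39 had a ratio above 0 in knockdown cells, where 51% of all genes did, and 43 in scramble cells, where 48.4% did. The summed ratio of complex V was -0.16 in knockdown cells (counting interval -0.18 to -0.15) and -0.01 in scramble cells (-0.02 to 0.01), where the sign flips with total counts. The summed ratio of complex IV was -0.14 in knockdown cells and -0.07 in scramble cells. When 1 library is left out, the ratio of the complete pair remains. On that reading NDUFA5 (-0.05), ATP5A1 (-0.13), COX7A2 (-0.13), ATP5C1 (-0.14) and ATP5E (-0.16) had log2 ratios in scramble cells that were less than their fitted values by over 1.5 times. In knockdown cells NDUFA5 (-0.39) and ATP5A1 (-0.45) exceeded theirs by as much. Of the genes called with the offsets, 4 moved likewise once the GC and length trend was removed from each pair. The ratio was -0.28 in knockdown cells and -0.08 in scramble cells for SDHA, -0.39 and -0.07 for ATP5A1, -0.28 and -0.12 for ATP5F1, and -0.30 and -0.14 for NDUFA4. Of the 9 erythroid markers, 3 rose and 4 fell with imatinib without the offsets (33.3% and 44.4%), against 13.8% and 7.08% of all genes. With the offsets 1 rose and 2 fell (11.1% and 22.2%), against 2.29% and 2.44% of all genes. The part of these markers in the results was not tested.

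With TCF7 knockdown 1 of the 88 genes rose and 0 fell by edgeR, where 3.8% of all genes rose and 3.34% fell. At an unadjusted p under 0.05, 11 members were higher, where 10.6% of all genes were, and 1 was lower, where 8.81% were. DESeq2 called 0 members and 2.05% of all genes, with 3 members at an unadjusted p under 0.05, where 8.96% of all genes were. The gene that rose was NDUFB1, an accessory subunit of the membrane arm of complex I at chromosome 14, 92116122 to 92121917 (minus strand, GRCh38). NDUFB1 had 19.3 CPM in knockdown cells with imatinib, 14.7 CPM in scramble cells with imatinib, 23.3 CPM in knockdown cells and 17.5 CPM in scramble cells. The knockdown library was the high one in each pair, with a log2 ratio of 0.42 both under imatinib (0.25 to 0.59) and without it (0.26 to 0.58). The fitted log2 fold change was 0.42 ± 0.13 (SE; edgeR adjusted p = 0.0355).

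With the GC and length offsets 3 genes rose, against 5.91% of all genes, and 1 fell, against 6.31%. These were NDUFB1, the ubiquinone-binding subunit UQCRB of complex III and the membrane anchor SDHC of complex II on the higher side, and the other membrane anchor, SDHD, on the lower. SDHD had 67.7 CPM in knockdown cells with imatinib and 86.1 CPM in scramble cells with imatinib, then 83.1 CPM in knockdown cells and 89.4 CPM in scramble cells. Its log2 fold change was -0.21 without the offsets, which did not pass, and -0.25 with them (edgeR adjusted p = 0.00365). Its pair ratios were -0.33 under imatinib and -0.10 without it, or -0.32 and -0.17 with the GC and length trend removed. With that trend removed UQCRB had 0.28 under imatinib and 0.09 without it, against a fitted 0.19, and SDHC had 0.25 and 0.10, against 0.17. SDHD was also called lower when the filter was set at 5 CPM. SDHB, the iron-sulfur protein, had 103 CPM in knockdown cells with imatinib, 97.4 CPM in scramble cells with imatinib, 97.0 CPM in knockdown cells and 105 CPM in scramble cells, with no direction shared by the pairs.

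Although few genes passed one by one, ratios above 0 were more numerous than in the table as a whole in the pair without imatinib. Under imatinib 54 of the 88 genes had a ratio above 0, where 53.4% of all genes did, with a median of 0.04 against 0.02. Without imatinib 67 did, where 50% of all genes did, with a median of 0.09 against 0.00. In both pairs 42 did, where 32.9% of all genes did. After a GC and length trend was removed from each pair the medians were -0.02 under imatinib and 0.08 without it. Both pairs rest on 1 library per group, so these shares have no test. Of the 11 NDUFB genes, 6 lay above 0 under imatinib (54.5%) and all 11 without it, or 4 and 10 with the trend removed. Other groups leaned the same way without imatinib. Under and without imatinib, 24 and 30 of 37 genes lay above 0 in complex I, and 6 and 6 of 9 in complex III. In the same order there were 12 and 15 of 21 in complex IV and 10 and 15 of 17 in complex V. The median of the 4 genes of complex II lay below 0, at -0.04 under imatinib and -0.06 without it. The fibroblast marker COL1A1 rose with knockdown too. It had 1.01 CPM or more in the knockdown libraries and 0.205 CPM or less in the scramble libraries. With 5 to 42 counts per library, it passed the filter only through the knockdown libraries, where it is high. The other markers of its list did not pass and were split. PDGFRB had ratios above 0 in both pairs, COL1A2 below 0 in both, and DCN and LUM opposite signs. The part of COL1A1 in these ratios was not tested.

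Under imatinib the summed knockdown ratios were 0.03 for complex I, -0.07 for complex II, 0.01 for complex III, 0.01 for complex IV and -0.07 for complex V, and the signs of complexes III and IV flip when libraries are scaled by total counts. Without imatinib they were 0.10 for complex I (counting interval 0.09 to 0.12), -0.03 for complex II, 0.06 for complex III, 0.08 for complex IV and 0.09 for complex V. The 5 genes of the F1 head of complex V had a summed ratio of -0.15 under imatinib (-0.16 to -0.13) and 0.08 without it (0.06 to 0.10). That sum is mostly ATP5B and ATP5A1, the most abundant of the 5. The interval covers counting error only, and the difference between the pairs was not tested.

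**Figure D5:**
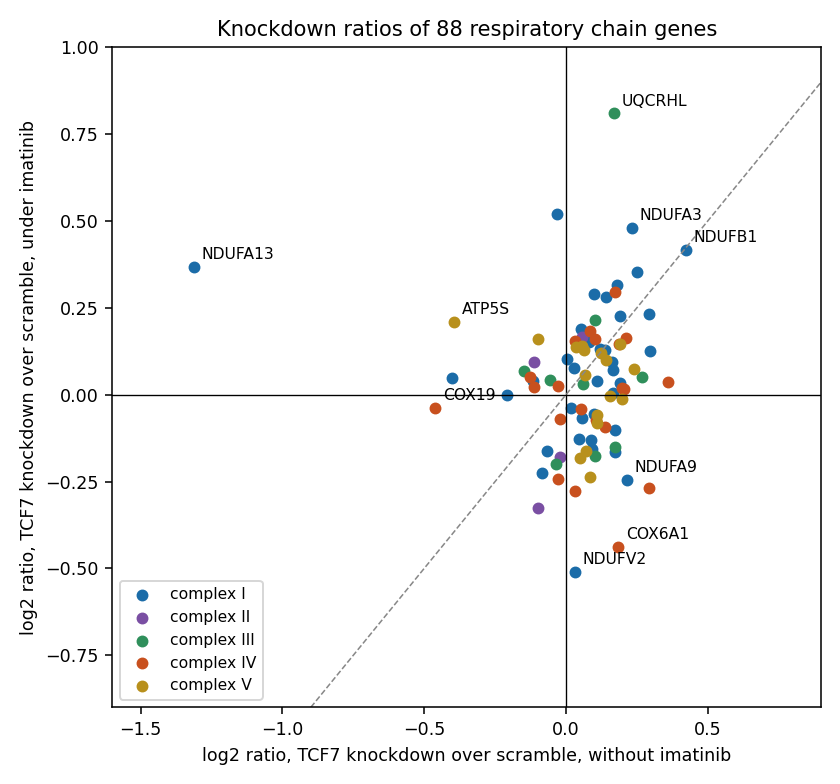
Log2 ratio of CPM, TCF7 knockdown over scramble, under imatinib (vertical) against without imatinib (horizontal) for the 88 genes, coloured by complex; the dashed line marks equal ratios. NDUFB1 lies on the line at 0.42, COX6A1 and NDUFV2 fall well below it, and NDUFA13, with 17 to 61 counts per library, lies at -1.31 and 0.37.

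The knockdown ratios of 4 genes with a mean of at least 5 CPM differed most between the pairs. COX6A1, the ubiquitous form of subunit 6A, had 8.22 CPM in knockdown cells with imatinib, 11.3 CPM in scramble cells with imatinib, 12.8 CPM in knockdown cells and 11.3 CPM in scramble cells. The library with knockdown and imatinib was the low one, and the difference of the log2 ratios was -0.62. The core subunit NDUFV2 was lowest in the same library, with 21.1, 30.6, 26.2 and 25.8 CPM in the same order of libraries and a difference of -0.54, but was highest in scramble cells with imatinib. NDUFA9 differed by -0.46. ATP5S, a coupling factor that is no structural subunit, differed by 0.60, with its low library in knockdown cells without imatinib. No error is left for these differences, so none was tested. COX6A1 and NDUFV2 share 13.0% and 28.4% of their exonic bases with another gene on the same strand.

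NDUFA4L2, a paralog of NDUFA4 that hypoxia induces, was counted 1 time in knockdown cells with imatinib, 16 times in scramble cells with imatinib, 1 time in knockdown cells and 22 times in scramble cells. Its knockdown log2 ratio was -2.50 under imatinib, with a counting interval of -9.27 to -1.19, and -2.94 without it, with an interval of -9.70 to -1.71. It lay under the filter on low counts, and without that filter its edgeR adjusted p was 0.0403. NDUFA4 itself, with 56.1 to 78.4 CPM, was not called for knockdown.

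Other genes of the pathway were counted in lists. Of the 13 mRNAs of mitochondrial DNA, which encode the partner subunits, 7 rose with knockdown and 0 fell, where 3.8% and 3.34% of all genes did. All 13 ratios lay above 0 in both pairs, where 32.9% of all genes did, at medians of 0.33 under imatinib and 0.12 without it. The 13 mRNAs were measured in the same 4 libraries and are not independent replicates. Their difference from the nuclear genes was not tested. With imatinib 6 rose and 1 fell without the offsets (46.2% and 7.69%), against 13.8% and 7.08% of all genes. With the offsets 8 rose and 0 fell (61.5% and 0%), against 2.29% and 2.44% of all genes. Of 45 assembly factors that passed, 1 rose with knockdown (NDUFAF8, for complex I, at a log2 fold change of 0.51, with pair ratios of 0.71 under imatinib and 0.28 without it) and 1 fell (TMEM70, for complex V, at -0.34). These calls were 2.22% of the list in each direction, against 3.8% and 3.34% of all genes. With imatinib 7 of the 45 rose and 4 fell without the offsets, 15.6% and 8.89% of the list, where 13.8% and 7.08% of all genes did. With the offsets 0 were called in either direction by edgeR.

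Of 18 carriers and subunits with names outside the rule, 2 (11.1%) rose with knockdown and 0 fell, against 3.8% and 3.34% of all genes. These were ATPIF1, which inhibits ATP hydrolysis by complex V, at a log2 fold change of 0.31, and HCCS, which attaches heme to cytochrome c, at 0.37. With imatinib CYC1 and COQ4 rose, and CYCS and USMG5 fell, without the offsets. These calls were 11.1% of the list in each direction, against 13.8% and 7.08% of all genes. With the offsets 1 rose and 3 fell (5.56% and 16.7%), against 2.29% and 2.44% of all genes. CYCS lost its call with the offsets, and ATPIF1 was called lower, at -0.254 (edgeR adjusted p = 0.00653). USMG5, a small membrane subunit of complex V, had 73.6 CPM in knockdown cells with imatinib, 69.9 CPM in scramble cells with imatinib, 93.8 CPM in knockdown cells and 89.4 CPM in scramble cells, and stayed called with the offsets (edgeR adjusted p = 0.00125). CYC1 had a log2 fold change of 0.26 without and -0.25 with the offsets, both past the test.

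Of 23 regulators of respiratory gene transcription, EPAS1, a hypoxia-inducible factor, rose with knockdown by 0.45 on the log2 scale, with pair ratios of 0.61 under imatinib and 0.29 without it. It was the 1 knockdown call of the list (4.35% higher and 0% lower), against 3.8% and 3.34% of all genes. With imatinib ESRRA, HCFC1, POLRMT and EPAS1 rose without the offsets, and TFAM, which packages mitochondrial DNA and helps to transcribe it, fell by 0.25. These calls were 17.4% of the list higher and 4.35% lower, against 13.8% and 7.08% of all genes. With the offsets EPAS1 alone of these 5 was still called, at 0.30. The log2 fold changes of the others with the offsets were 0.23 for ESRRA, 0.04 for HCFC1, 0.10 for POLRMT and -0.09 for TFAM. The TFAM ratio for imatinib was -0.40 in knockdown cells and -0.10 in scramble cells, that of ESRRA 0.96 and 0.46, and that of EPAS1 0.58 and 0.25 in the same order. NRF1 and GABPA were not called for either factor. PPARGC1A, a coactivator of respiratory genes, had 0 CPM in 3 libraries and 0.121 CPM in scramble cells. In the citric acid cycle list, which holds the pyruvate dehydrogenase kinases too, 2 of 23 genes rose with knockdown (PDK2 and PDK4) and PDK1 fell. These were 8.70% and 4.35% of the list, against 3.8% and 3.34% of all genes. PDK4 had at least 2.15 CPM in the knockdown libraries and at most 0.851 CPM in the scramble libraries. It passed the filter only through the libraries where it is high, so its call is tied to the filter. PDK2 had 28 to 114 counts per library. PDK1 had 84.8 CPM in knockdown cells with imatinib, 144 CPM in scramble cells with imatinib, 111 CPM in knockdown cells and 171 CPM in scramble cells. Fumarase (FH) and PDK1 fell with imatinib and OGDH rose without the offsets. These were 8.70% lower and 4.35% higher, against 7.08% and 13.8% of all genes. With the offsets 4 genes of the list fell (17.4%) and 0 rose, against 2.44% and 2.29% of all genes. The 4 were FH at -0.21, IDH3G at -0.385, IDH3B at -0.193 and PDK2 at -1.205. OGDH at 0.03 and PDK1 at -0.16 were not called with the offsets. The FH ratio for imatinib was -0.52 in knockdown cells and -0.10 in scramble cells.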

How the data were processed

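Total RNA of 4 samples was freed of ribosomal RNA and made into strand-keeping libraries, per the labels' protocols. The submitters' processing notes list FastQC, HISAT2, HTSeq 0.6.1 and GRCh38. Neither the annotation release nor the strand setting of the counting is given in the sources used here. The deposited counts are whole numbers per gene and library and entered the fit unchanged. The authors' FPKM columns hold 6 genes below 0 and were treated as a score (deposited FPKM); for 89 of 91 members with a known divisor it equals the merged exon length of GENCODE release 29 within 1 base. A further 4 columns of log2(1 + FPKM) were not used.

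The members, lists and tests were chosen with earlier results of these data known. All 93 members matched the annotation by identifier (28329 of the 28482 genes did). Of the members, 18 share over 10% of their exonic bases with another gene on the same strand and 18 with one on the opposite strand, so their counts are uncertain. The filter, 1 CPM in at least 2 libraries, left 13296 genes. CPM scales the count by the total of the library. edgeR 4.0.16 in R 4.3.3 gave the quasi-likelihood test of both factors in an additive fit over 4 libraries with TMM factors of 0.994 to 1.01. Benjamini-Hochberg adjustment ran over all genes, called at 0.05. In the main fit 1 residual and 33.8 prior degrees of freedom stood behind each gene. In the fit with GC and length offsets the prior degrees of freedom were infinite, so its p-values rest wholly on the spread shared across genes. Log2 ratios of a pair use TMM and a prior count of 2, with exact binomial 95% counting intervals, which cover counting error alone because reads are not separate molecules. GC and length offsets were a smooth trend per library (mgcv 1.9.3). Alternatives were DESeq2 1.42.0, limma 3.58.1 on log2(FPKM + 0.1), other scalings, filters and designs. Named genes were those called for knockdown, the largest imatinib calls per complex and direction, the extremes of FPKM, paralog sets, complex II, and the 4 members whose knockdown ratios differed most between the pairs; others named were chosen after their values were seen.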

Additional observations from a re-analysis of the deposited data

Results flagged for a closer look

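In 13 genes the knockdown ratios under and without imatinib, or the imatinib ratios in knockdown and in scramble cells, had opposite signs with counting intervals that left out 0. The intervals cover counting error alone. The same count over all genes tested was not made, so no background share stands beside it. NDUFV2 and UQCRQ had opposite signs for imatinib only. NDUFB2, SDHB, UQCRFS1 and ATP5B had them for both factors, and the others for knockdown only. The differences of the log2 ratios (knockdown over scramble, under imatinib minus without) were not tested, since each group has 1 library. The difference was -0.34 for NDUFA5, -0.46 for NDUFA9, -0.27 for NDUFB2 and -0.54 for NDUFV2 in complex I, and 0.21 for SDHB in complex II. In complex III it was -0.33 for UQCRFS1 and -0.22 for UQCRQ, and in complex IV it was -0.23 for NDUFA4. In complex V it was -0.32 for ATP5A1, -0.23 for ATP5B, -0.17 for ATP5C1, -0.19 for ATP5F1 and 0.60 for ATP5S.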

How the results depend on the processing

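No paired analysis was possible because the labels give no replicate numbers and each group has 1 library. For knockdown the number of members called, 1 higher and 0 lower, became 2 of 93 with no filter (NDUFB1 higher, NDUFA4L2 lower). It was 2 of 83 with a filter at 5 CPM (NDUFB1 higher, SDHD lower). Over all genes these 2 settings called 912 of 28482 and 1004 of 10194. The number of members became 4 of 88 with GC and length offsets (3 higher, 1 lower), where 1620 of 13255 genes were called. It became 0 with DESeq2, with limma on FPKM and with the imatinib term left out. For imatinib the 24 calls became 9 of 88 with the offsets (2 higher, 7 lower), where 628 of 13255 genes were called. They became 10 of 88 with DESeq2 (4 higher, 6 lower), where 1003 of 13296 genes were called. They became 0 with limma and with the knockdown term left out. In these last 2 fits 0 genes of the whole table were called, and 16 and 20 members had an unadjusted p under 0.05 for imatinib, 3 and 0 for knockdown. The share of all genes at that unadjusted p was not counted for these 2 fits, so the member counts have no background. NDUFV1 reversed with the offsets, at -0.13. With total counts in place of TMM the summed knockdown ratios under imatinib were 0.0143 for complex I, -0.0113 for complex III, -0.0117 for complex IV and -0.0871 for complex V, and that of imatinib in scramble cells was 0.0096 for complex V. With DESeq2 size factors the imatinib ratio of complex V in knockdown cells was -0.18, and without the assembly factors that of complex IV was -0.16. The cause of these changes was not tested. The counting interval of a member's ratio reached 0.09 to either side in the median over members, and less for abundant genes, so the depth limits each gene by its own interval.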
